A study of Mus musculus with 3 samples.

Results

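The 9 genes described here encode the junction and signalling proteins of the slit diaphragm: Nphs1, Cd2ap, Magi2, Tjp1, Nck2, Pard3, Pard3b, Plce1 and Trpc6. They were chosen by name out of 21887 protein-coding genes, with earlier results of these data known. Each was assigned every ChIP-seq peak whose summit lay in its RefSeq span or within 50 kb of either end. In ChIP-seq, chromatin fragments held by an antibody are sequenced, and a peak is a place where they pile up. Chromatin came from glomeruli of C57BL/6 mice aged 8 weeks, collected with magnetic beads, and was precipitated with an antibody to the forkhead factor Foxc1 (D8A6, CST) or to Foxc2 (AF6989, R&D Systems). Each antibody has 1 library, and a library of input DNA was not analysed here. No genetic change or treatment is named in the labels. By this rule, 24 of the 5213 Foxc1 peaks and 21 of the 2881 Foxc2 peaks belonged to the 9 genes.

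The slit diaphragm is the thin junction that spans the gap between neighbouring foot processes of podocytes, the epithelial cells around the glomerular capillaries. Nephrin, the product of Nphs1, bridges the gap, and adaptor proteins, scaffolds of the tight junction type and polarity proteins tie its cytoplasmic tail to the actin cytoskeleton. A phospholipase and a cation channel work in signalling at the same place, and mutations in several of these genes cause nephrotic syndrome in people. Foxc1 and Foxc2 are closely related DNA-binding proteins expressed in podocytes.

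Isolated glomeruli also contain endothelial and mesangial cells, so a peak could come from any of these cells, and peak lists hold no expression levels against which to check the tissue label. Because neither antibody has a replicate library, no spread could be measured and no test was made. Folds are the enrichment at the summit over local background given by the authors' peak caller, and they were ranked only within a list. The median fold was 4.90 in the Foxc1 list and 3.97 in the Foxc2 list. Sequencing depth is unknown.

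Peaks were found at 8 of the 9 genes with Foxc1 and at 7 with Foxc2, and 7 genes had both. Nphs1 had a single Foxc1 peak and no Foxc2 peak, and Trpc6 had neither. Among all protein-coding genes, 29.3% had a Foxc1 summit by the same rule, 23.2% a Foxc2 summit and 12.5% both. Gene length bears on these shares, because 8 of the 9 genes fall in the longest decile of protein-coding genes by span (108.5 kb or more). In that decile the shares were 47% for Foxc1 and 27.7% for Foxc2. Nphs1, with a span of 30.4 kb, falls in the seventh decile, where the shares were 30.1% and 25.4%. Counted over the searched windows, the 9 genes had 0.490 Foxc1 and 0.429 Foxc2 peaks per 100 kb, against 0.258 and 0.114 in the longest decile of genes and 0.294 and 0.223 over all protein-coding genes. The map of peaks along the genes shows where the summits of each antibody lay.

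**Figure D1:**
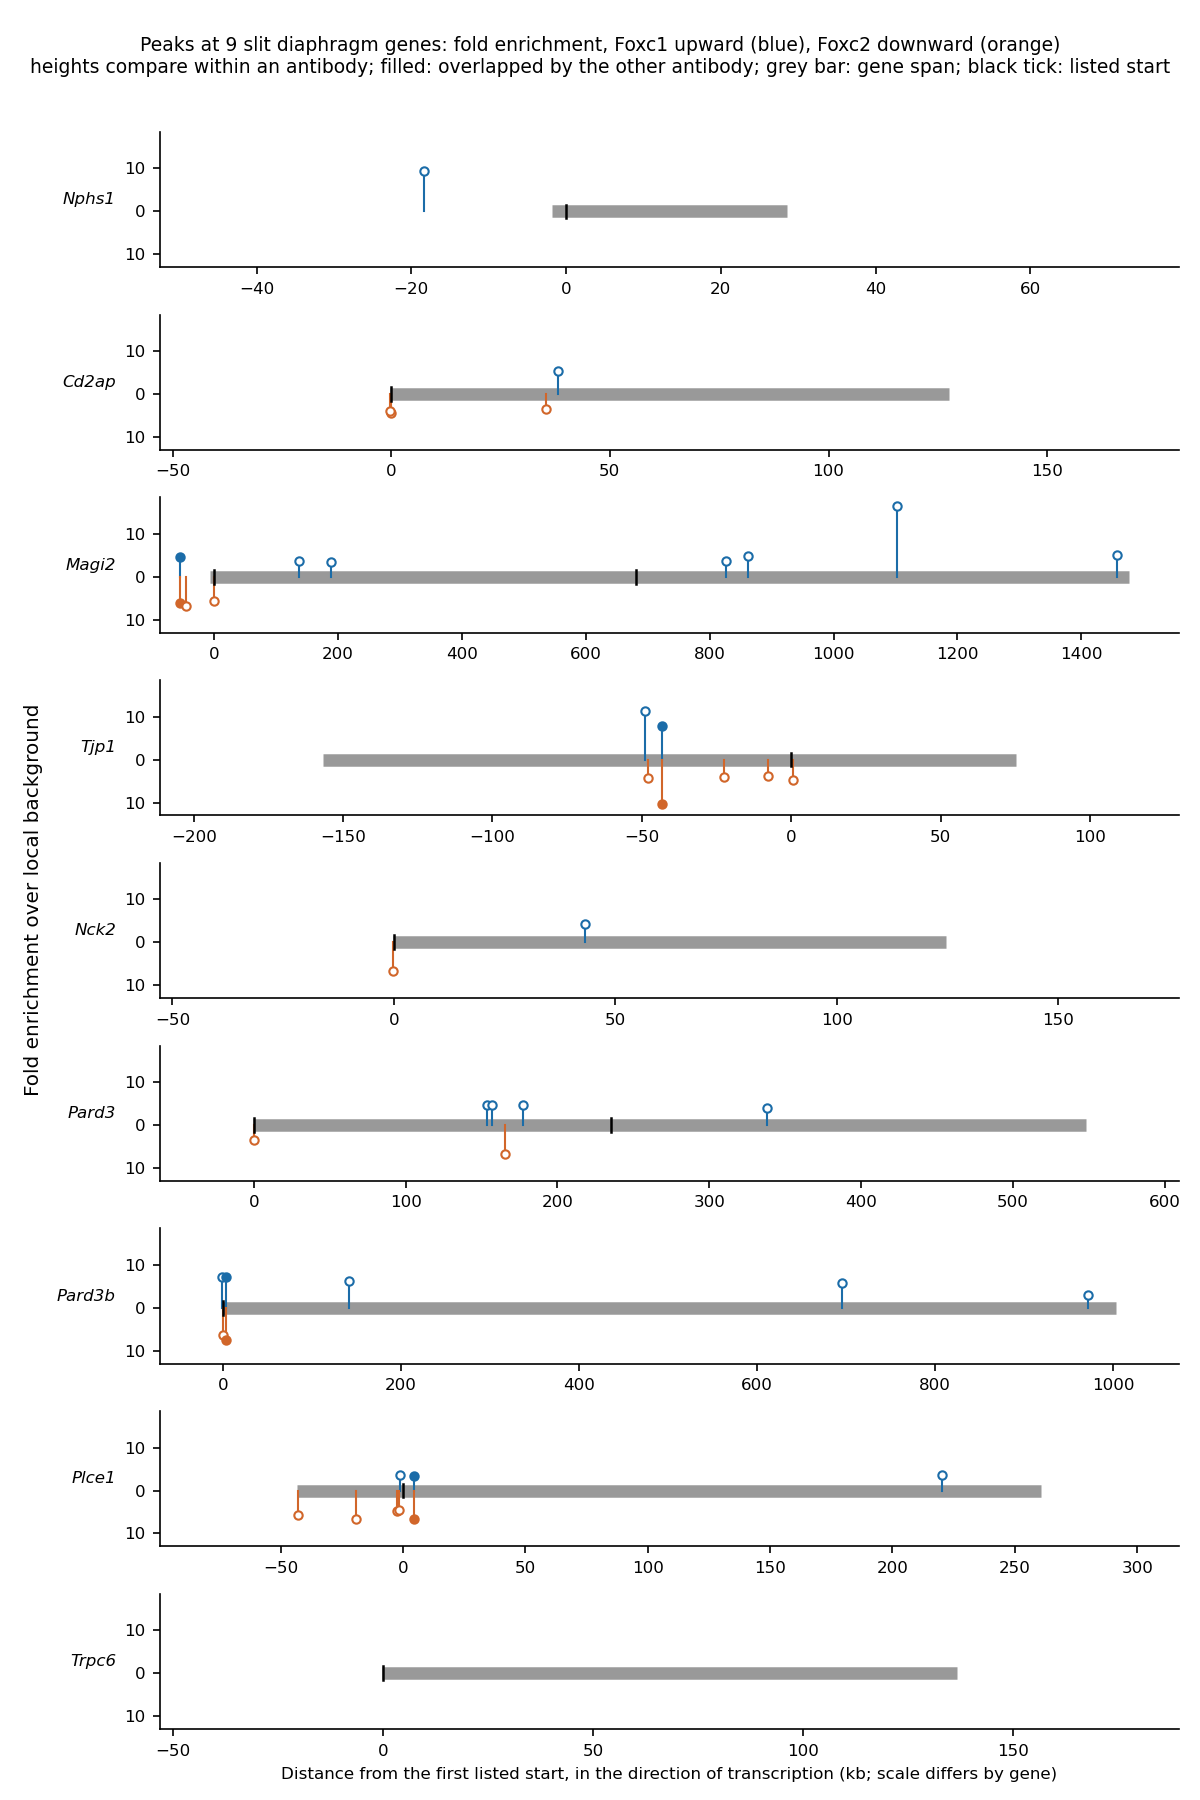
Each row is 1 gene, with distance from its first listed RefSeq start in kb on the x axis and fold enrichment on the y axis, Foxc1 upward and Foxc2 downward; filled points are peaks overlapped by the other antibody, grey bars are gene spans and black ticks are starts. The highest Foxc1 point is the Magi2 peak of fold 16.6 and the highest Foxc2 point the Tjp1 peak of fold 10.3, while Trpc6 has no point.

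Foxc2 peaks marked listed transcription starts of 6 genes: Cd2ap, Magi2, Tjp1, Nck2, Pard3 and Pard3b each had a Foxc2 summit within 1 kb of a start listed by RefSeq, against 8.36% of the 17492 protein-coding genes with a listed start. Foxc1 had such a summit at 1 gene, Pard3b, against 2.7% of genes. The Foxc2 summits lay 33 bp inside the start at Pard3, 91 bp inside at Pard3b, 0.102 kb before it at Nck2, 336 bp before it at Magi2 and 469 bp inside at Tjp1. Cd2ap had a pair of Foxc2 peaks, with summits 62 bp inside and 319 bp before the start. These 7 summits were all within 0.469 kb of a start. Of the other Foxc2 summits, 5 lay between 1.806 and 7.893 kb and 9 between 19.4 and 69.9 kb from the nearest listed start of their gene. These counts depend on which starts are listed. At Plce1 the only listed start lies 43.2 kb inside the span. A Foxc2 summit 0.122 kb from the upstream end of that span was therefore not counted as at a start.

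**Figure D2:**
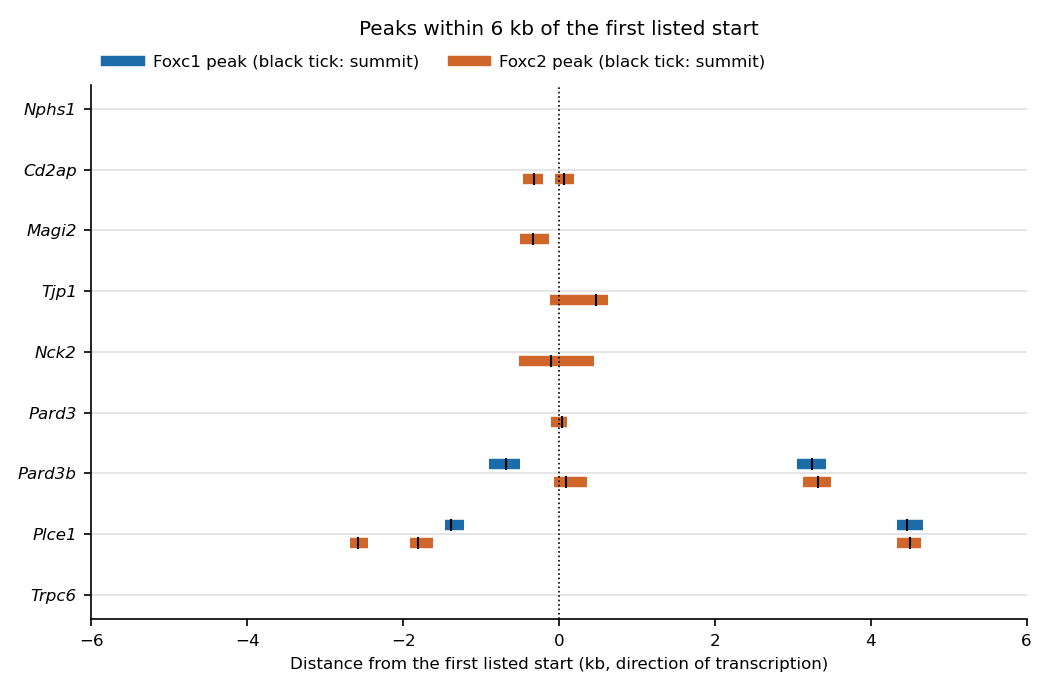
Each row is 1 gene and each bar a peak drawn to scale within 6 kb of the first listed start (x axis in kb, in the direction of transcription), blue for Foxc1 and orange for Foxc2, with a black tick at the summit. Orange bars meet or nearly meet the start in 6 rows, a blue bar lies within 1 kb of the start at Pard3b alone, and the rows of Nphs1 and Trpc6 are empty.

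The Foxc1 summits stood farther from starts. The nearest lay 678 bp before the Pard3b start, and 3 more of the 24 lay within 10 kb, at 1.391 and 4.463 kb from the Plce1 start and at 3.249 kb from the Pard3b start. The other 20 lay 18.3 kb or more away, reaching 972 kb inside Pard3b. Foxc1 summits had a median distance of 80.2 kb, and Foxc2 summits one of 4.51 kb. These medians were not adjusted for gene length, and no median of the whole lists is given here. The longest genes, Magi2, Pard3b and Pard3, had 7, 5 and 4 of the Foxc1 summits. Of the Foxc2 summits they had 3, 2 and 2. Of the 21 Foxc2 summits, 7 (33.3%, exact Clopper-Pearson 95% interval 14.6 to 57.0%) lay within 1 kb of a start of their gene, and 1 of 24 Foxc1 summits did (4.17%, exact interval 0.105 to 21.1%). Over the whole lists, 49.0% of Foxc2 and 8.33% of Foxc1 summits lay within 1 kb of a listed start of a protein-coding gene, and each interval holds the value of its list. The intervals cover counting error only, and peaks of 1 library are not replicates.

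The sequences around these starts show part of what the Foxc2 peaks covered. The windows below are RefSeq sequences of GRCm38.p6, from 250 bases before to 50 bases after the start, 5′ to 3′ on the strand of the gene. Of the Foxc2 summits at starts, those of Nck2 and Pard3 lay inside these fixed windows. Those of Cd2ap, Magi2, Tjp1 and Pard3b lay outside, so the windows describe the starts and not the sequence at most of these summits. The covered windows shown are those of Nck2 (chr1:43445501-43445800, plus strand), Cd2ap (chr17:42876375-42876674, minus strand) and the first Pard3 start (chr8:127063806-127064105, plus strand). A Foxc2 peak covers part or all of each, and capitals mark the bases under a Foxc2 peak. Foxc2 peaks also covered 169 bases of the Tjp1 window, 122 of the first Magi2 window and 119 of the Pard3b window, which are not shown. The second start of Pard3 (chr8:127299362-127299661, plus strand) and the start of Nphs1 (chr7:30459808-30460107, plus strand) are shown as starts without a peak. In the second Pard3 window the capitals mark a forkhead word, and the Nphs1 window has no capitals.
Nck2: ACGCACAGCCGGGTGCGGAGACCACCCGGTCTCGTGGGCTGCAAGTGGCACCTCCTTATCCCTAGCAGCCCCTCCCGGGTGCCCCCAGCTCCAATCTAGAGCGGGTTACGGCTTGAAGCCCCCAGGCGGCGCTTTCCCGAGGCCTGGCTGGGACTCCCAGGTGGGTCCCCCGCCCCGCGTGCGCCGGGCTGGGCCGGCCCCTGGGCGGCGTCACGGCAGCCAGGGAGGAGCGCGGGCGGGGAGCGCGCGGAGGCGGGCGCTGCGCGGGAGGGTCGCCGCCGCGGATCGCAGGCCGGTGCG
Cd2ap: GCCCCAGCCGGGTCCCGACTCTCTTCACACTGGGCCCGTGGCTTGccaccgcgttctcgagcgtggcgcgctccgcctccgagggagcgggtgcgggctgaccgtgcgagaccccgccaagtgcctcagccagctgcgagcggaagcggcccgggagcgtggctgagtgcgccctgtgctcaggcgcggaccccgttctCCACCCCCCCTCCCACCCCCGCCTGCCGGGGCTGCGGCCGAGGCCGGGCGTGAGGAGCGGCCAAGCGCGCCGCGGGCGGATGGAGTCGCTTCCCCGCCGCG
Pard3, first start: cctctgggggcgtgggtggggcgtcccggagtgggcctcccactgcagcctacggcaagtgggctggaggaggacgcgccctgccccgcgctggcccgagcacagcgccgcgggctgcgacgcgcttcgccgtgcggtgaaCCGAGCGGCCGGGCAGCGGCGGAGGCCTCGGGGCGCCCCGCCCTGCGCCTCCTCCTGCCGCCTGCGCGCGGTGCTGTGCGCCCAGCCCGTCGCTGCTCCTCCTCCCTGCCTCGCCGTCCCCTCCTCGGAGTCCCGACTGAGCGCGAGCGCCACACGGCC
Pard3, second start: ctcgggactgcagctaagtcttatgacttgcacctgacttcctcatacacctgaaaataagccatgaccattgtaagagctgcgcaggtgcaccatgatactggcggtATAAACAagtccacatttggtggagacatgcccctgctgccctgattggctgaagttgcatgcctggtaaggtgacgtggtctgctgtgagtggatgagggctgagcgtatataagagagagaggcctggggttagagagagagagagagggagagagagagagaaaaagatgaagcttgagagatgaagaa
Nphs1: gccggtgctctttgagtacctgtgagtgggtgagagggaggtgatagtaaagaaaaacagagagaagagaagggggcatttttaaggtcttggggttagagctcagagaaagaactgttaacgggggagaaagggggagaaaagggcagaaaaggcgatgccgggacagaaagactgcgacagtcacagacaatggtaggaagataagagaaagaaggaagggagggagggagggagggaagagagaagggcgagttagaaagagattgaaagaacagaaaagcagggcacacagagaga

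The Foxc2 peak of Nck2 covered all 300 bases of its window, the peaks of Cd2ap 146 bases at both edges, and the peak of Pard3 the 159 bases nearest to the gene. The covered windows were rich in the dinucleotide CpG, which vertebrate genomes keep mainly in islands at gene starts. The 9 genes have 11 listed starts. At the 6 starts with a Foxc2 summit within 1 kb the window held 42 CpGs at Pard3, 41 at Cd2ap, 37 at Nck2, 31 at Tjp1, 29 at Magi2 and 26 at Pard3b. At the other 5 it held 17 at Trpc6, 8 at Plce1, 6 at Nphs1, 5 at the second Pard3 start and 4 at the second Magi2 start. The sets did not overlap, and G and C made up 62.7 to 78.7% of the bases of the first and 41 to 60% of those of the second. Over all protein-coding genes there was no such split: the 1729 windows with a Foxc2 summit within 1 kb held 1 to 65 CpGs. No window was listed at the upstream end of the Plce1 span, where a Foxc2 summit lay. The covered windows shown above have the most CpGs of the first set, and Trpc6, with the most of the second, is not shown. Pard3 and Magi2 each showed both kinds within 1 gene, with the Foxc2 peak at the CpG-rich upstream start.

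A gradient with CpG count, without a clean split, ran through the start windows of all protein-coding genes. Of 21263 start windows of protein-coding genes, 21.7% in the quartile with the most CpGs had a Foxc2 summit within 1 kb, against 8.58, 2.03 and 0.188% in the lower quartiles. For Foxc1 the shares were 4.23, 3.93, 1.67 and 0.245%. The 6 windows of the slit diaphragm genes with a Foxc2 summit all hold at least 26 CpGs, a count that 22.6% of all windows reach.

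**Figure D3:**
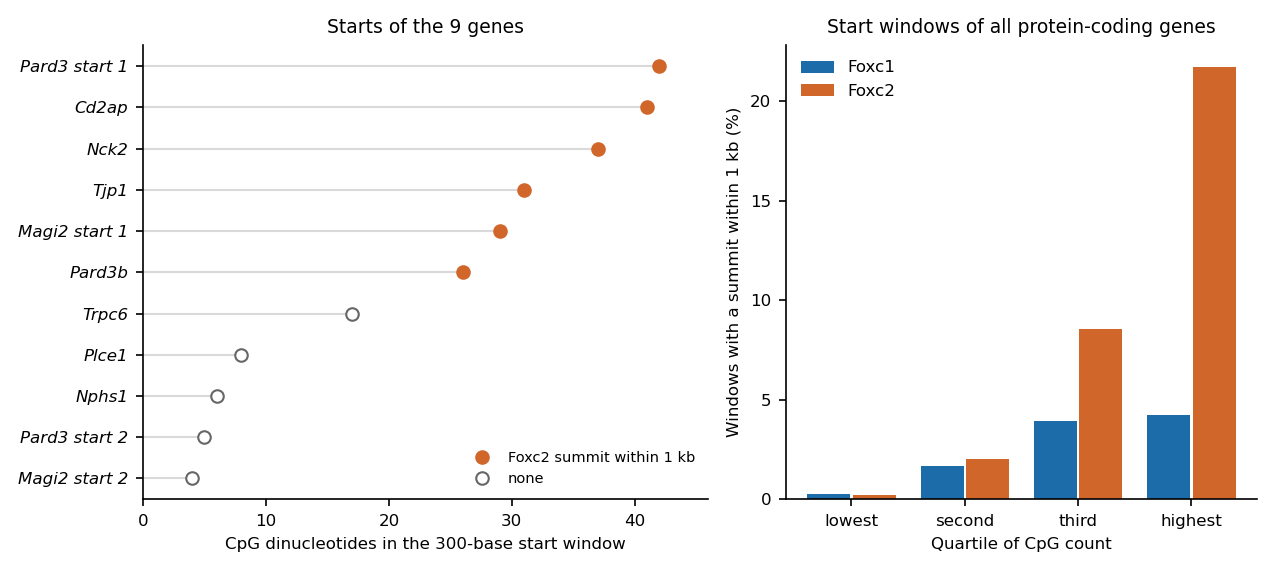
Left, CpG dinucleotides in each of the 11 start windows (x axis), orange where a Foxc2 summit lay within 1 kb and open where none did. Right, percentage of all protein-coding start windows with a summit within 1 kb by quartile of CpG count, which for Foxc2 climbs from 0.188% in the lowest quartile to 21.7% in the highest.

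Forkhead proteins bind words related to TGTTTAC. That word, searched on both strands, was in none of the 11 windows, against 3.01% of all protein-coding start windows. The shorter TGTTTA, which is part of TGTTTAC and of the variant TGTTTAT, was in 1 window, against 11.5% of all. This was the second start of Pard3, where the reverse strand word ATAAACA begins 142 bases before the start. The variant TATTTAC was in none, against 2.59% of all. In the quartile of windows with the most CpGs, TGTTTAC was in 1.79% and TGTTTA in 4.33%. With 11 windows, the counts cannot be set apart from these shares. The second Pard3 start had no summit of either antibody nearer than 58.3 kb. Sequence under peaks was searched only where it lay inside these windows. The Foxc2 summits at the starts of Cd2ap, Magi2, Tjp1 and Pard3b lay outside them. A word missing from these windows says nothing of bases outside them.

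Nphs1, Cd2ap and Nck2 had 1 Foxc1 peak each. With a short searched window, Nphs1 had the highest Foxc1 density of the 9 genes, 0.767 peaks per 100 kb, from that single peak. The Foxc1 peak counted for Nphs1 (chromosome 7, 30441516 to 30441933) had a fold of 9.33 with a minus log10 q of 35.3, and ranked 639 of 5207. Its summit lay 16.5 kb outside the Nphs1 span and 18.3 kb before the start, inside the neighbouring gene Aplp1 and 3.85 kb from an end of it. The rule counts the same peak for Kirrel2, which encodes a nephrin-like protein, and for Tyrobp, Hcst, Nfkbid and Aplp1. The nearest Foxc2 summit to the Nphs1 span was 226 kb away.

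Cd2ap, whose product links nephrin to actin, had 1 Foxc1 peak and 3 Foxc2 peaks. The Foxc1 peak had a fold of 5.38 and lay 38 kb into the gene (chromosome 17, 42838289 to 42838562). A Foxc2 peak of fold 3.44 had its summit 2.547 kb from it, without overlap. The Foxc2 peaks at the start had folds of 4.30 and 3.95, both near the median of the list. Only 3.93% of genes in the longest decile had 3 or more Foxc2 peaks, and per 100 kb Cd2ap had 1.32 Foxc2 peaks, second among the 9 genes to Tjp1 with 1.51.

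Nck2, an SH2 and SH3 adaptor that docks on phosphorylated nephrin, had 1 peak of each antibody, 43.3 kb apart. The Foxc2 peak at its start was 960 bp wide, the widest at the 9 genes, with a fold of 6.57 and rank 150 of 2878. The Foxc1 peak inside the gene had a fold of 4.20 and rank 3740 of 5207.

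The scaffold genes Magi2, Pard3b and Pard3 have the longest spans of the 9, and their counts of peaks stand beside longer searched windows. Magi2, which encodes a PDZ scaffold bound to nephrin, had 7 Foxc1 peaks over a span of 1485 kb, a number reached by 1.23% of genes in the longest decile. The strongest (chromosome 5, 20328776 to 20329310, fold 16.6, rank 177) lay 422 kb beyond the second start, and no Foxc2 summit lay within 553 kb of it. The other 6 had folds of 3.48 to 5.06. Its 3 Foxc2 peaks all lay at or before the first start, with folds of 6.19, 6.83 and 5.57 at 55.6, 45.9 and 0.336 kb before it. Per 100 kb, Magi2 had 0.442 Foxc1 and 0.189 Foxc2 peaks and Pard3b 0.453 and 0.181, all below the values of the 9 genes together, 0.490 and 0.429.

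Tjp1 encodes ZO-1, a PDZ scaffold of tight junctions that is also at the slit diaphragm. It had 2 Foxc1 and 5 Foxc2 peaks within its span, and 0.503% of genes in the longest decile had 5 or more Foxc2 peaks. The span reaches 157 kb upstream of the single listed start, and 6 of the 7 peaks lay in that upstream part. The strongest Foxc2 peak of the 9 genes was there (chromosome 7, 65414201 to 65414773, fold 10.3, minus log10 q of 38.2, rank 15 of 2878), overlapped by a Foxc1 peak of fold 7.75. At 48.8 and 48 kb before the start, a Foxc1 peak of fold 11.4 and a Foxc2 peak of fold 4.30 had summits 793 bp apart without overlap. The Foxc2 peaks at 7.893 and 22.5 kb before the start had folds of 3.86 and 3.95, and the one at the start 4.64.

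Pard3 encodes the polarity scaffold Par3, and Pard3b its paralogue. Pard3 had 4 Foxc1 peaks of similar fold, 4.59, 4.75, 4.75 and 4.0, all inside the gene. The first 3 lay between the listed starts, 154 to 177 kb beyond the first. A Foxc2 peak of fold 6.71 (chromosome 8, 127229543 to 127229874) lay among them, 8.733 kb from the nearest Foxc1 summit. The Foxc2 peak at the first start was weaker, at a fold of 3.57 (rank 2136).

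At Pard3b both antibodies had a summit within 1 kb of the start, without overlap of the peaks. The Foxc1 peak of fold 7.21 ended before the start and the Foxc2 peak of fold 6.33 covered it, with summits 769 bp apart. Then, 3.2 to 3.3 kb inside the gene, a Foxc1 peak of fold 7.12 and a Foxc2 peak of fold 7.50 overlapped (chromosome 1, 61641953 to 61642244 in common). The other 3 Foxc1 peaks were 141, 696 and 972 kb inside, with folds of 6.14, 5.70 and 3.00. The peak at 141 kb also lay in the noncoding gene Pard3bos1.

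Of the signalling genes, Plce1 had 3 Foxc1 and 5 Foxc2 peaks, and Trpc6 none. Plce1 encodes phospholipase C epsilon, which makes second messengers from membrane lipid. Its Foxc1 peaks were all weak, with folds of 3.63, 3.48 and 3.71, ranking 4576 or lower of 5207. Its Foxc2 peaks had folds of 5.67, 6.71, 4.81, 4.64 and 6.53, all above the list's median. From upstream to downstream, they lay 43 kb, 19.4 kb, 2.581 kb and 1.806 kb before the listed start and 4.506 kb inside it. The first of these was 0.122 kb from the upstream end of the RefSeq span, which begins 43.2 kb before the start. The Foxc1 peak of fold 3.71 was also counted for the neighbour Noc3l. Trpc6, which encodes a calcium-permeable channel, spans 137 kb. Its nearest Foxc1 summit was 508 kb and its nearest Foxc2 summit 5068 kb from the span.

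Peaks of the antibodies overlapped at 1 place each in Magi2, Tjp1, Pard3b and Plce1. A Foxc1 peak overlapped by a Foxc2 peak was assigned to 3.39% of all protein-coding genes. That share covers genes of every length. No such share is given here for the longest decile, which holds most of these slit diaphragm genes. The 4 pairs shared 312, 392, 292 and 301 bp, and their summits lay 125, 49, 69 and 43 bp apart. They made up 16.7% of the 24 Foxc1 peaks (exact Clopper-Pearson 95% interval 4.74 to 37.4%) and 19.05% of the 21 Foxc2 peaks (exact interval 5.45 to 41.9%), against 8.20 and 14.8% in the whole lists. Both intervals hold the value of the whole list. In the Foxc2 list all 4 ranked high, at 194, 15, 82 and 152 of 2878. In the Foxc1 list they ranked 2982, 932, 1100 and 4843 of 5207. None of the 7 Foxc2 peaks at starts was overlapped (exact interval 0 to 41.0%), against 7.87% of the 1410 Foxc2 peaks within 1 kb of a start in the whole list, a value that the interval holds. Within 1 kb of a summit of the other antibody lay 7 of 24 Foxc1 and 7 of 21 Foxc2 summits (29.2 and 33.3%), against 9.68 and 17.8% in the whole lists. These are the same 7 pairs counted from each side, they include the 4 overlapped pairs, and no interval was computed for them.

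By fold, most Foxc2 peaks of these genes lay in the upper part of their list, and most Foxc1 peaks did not. Of 21 Foxc2 peaks, 16 were above the list's median and 9 were among its top 10%. Of 24 Foxc1 peaks, 10 were above the median and 2 among the top 10%, those of Magi2 and Tjp1 with folds of 16.6 and 11.4. Foxc2 peaks more than 1 kb from a start had a median fold of 5.93, and those at starts 4.64. In the whole Foxc2 list these medians were 4.30 and 3.78.

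**Figure D4:**
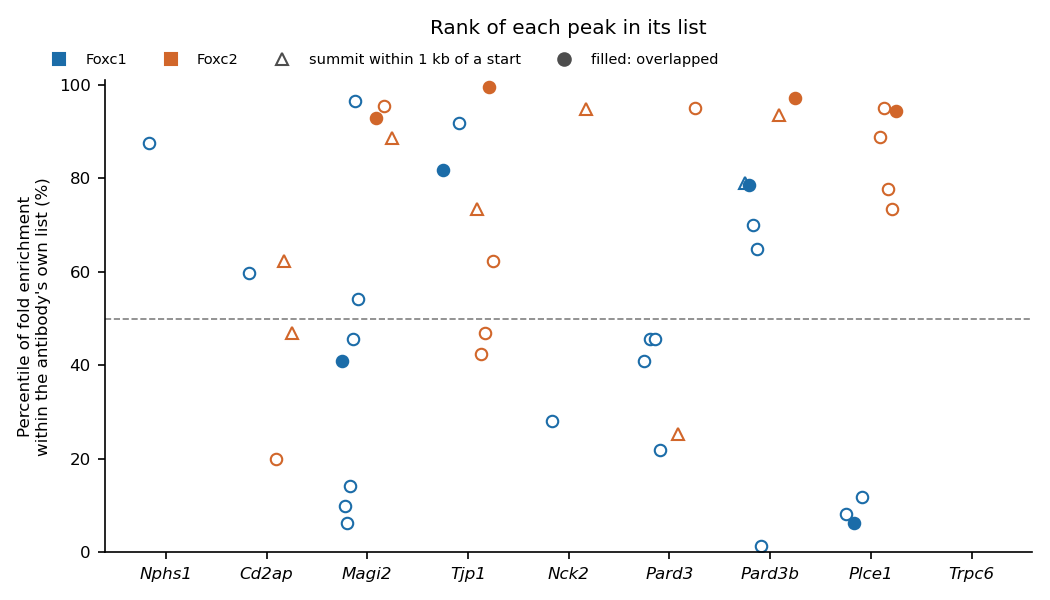
Percentile of each peak's fold enrichment within its own antibody's list (y axis, %) for the 9 genes (x axis), blue for Foxc1 and orange for Foxc2; triangles are summits within 1 kb of a start, filled points are overlapped peaks and the dashed line is the 50th percentile. Of the orange points 16 lie above the median of the list, and of the blue points 10; the 3 blue points of Plce1 are at 11.9% or lower.

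The distance of 50 kb decided whether Nphs1 was counted: with the span alone or with 10 kb its single peak was lost, and 7 genes in place of 8 had a Foxc1 summit. With 100 kb the Foxc1 peaks went from 24 to 29, and the Foxc2 peaks stayed at 21. The farthest peaks within 50 kb were the overlapping pair upstream of Magi2, at 47.8 kb (Foxc1, fold 4.59) and 47.9 kb (Foxc2, fold 6.19), and the nearest outside, 52.1 kb from Magi2, belonged to Foxc1 with a fold of 3.96. No Foxc2 summit lay between 50 and 100 kb from any of the 9 genes.

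Genes of the same decile of span were searched for the same numbers of peaks. Trpc6, with none, was matched by 1005 genes, Nphs1 by 300 and Nck2, with 1 peak of each, by 113. For Tjp1 and Plce1, no other gene of the longest decile had the same counts of Foxc1, Foxc2 and overlapped peaks. For Magi2 the only one was Apbb2 and for Pard3b the only one was Chd2, with far shorter spans of 320 and 115 kb against 1485 and 1004 kb. For Pard3 there were 3, Rgl1, Hivep2 and Afap1, and for Cd2ap 6, of which Osbpl9, Sulf1 and Dgkh were nearest in span.

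Beyond the 9 genes, 36 further genes of the slit diaphragm and its signalling were examined. Foxc1 summits were assigned to 20 of them (55.6%) and Foxc2 summits to 21 (58.3%), with 13 (36.1%) having both and 8 neither. Over all protein-coding genes the shares were 29.3% for Foxc1, 23.2% for Foxc2 and 12.5% for both. In the longest decile of span they were 47% for Foxc1 and 27.7% for Foxc2, and the list was not matched to other genes by length. The Foxc1 peak of Kirrel2 is the peak already counted for Nphs1. Of the 30 with a listed start, 9 had a Foxc2 summit within 1 kb of it and none had a Foxc1 summit there. Among all protein-coding genes with a listed start, 8.36% had such a Foxc2 summit and 2.7% such a Foxc1 summit. Kirrel, which encodes the nephrin partner Neph1, had no Foxc1 peak and 2 Foxc2 peaks of fold up to 7.91, with a summit 221 bp from its start. Of the kinases that work with Par3, Prkcz had 1 and 4 peaks and Prkci 1 and 2, and the Par6 gene Pard6b had 3 Foxc2 peaks and no Foxc1 peak. Fyn, the kinase that phosphorylates nephrin, had 4 and 3, with a Foxc2 summit 41 bp from its start. Downstream of Nck, Wasl had 3 and 2, with a Foxc2 summit 3 bp from its start. Cblb, a ubiquitin ligase gene, had 6 and 3, Crk 2 and 3, Dag1 2 of each, Iqgap1 2 and 1, Ptpro 1 and 2, and Fat1 and Pard6g 1 of each. Pik3r1 had 3 Foxc1 peaks, 1 with a fold of 14.1, and no Foxc2 peak. Nck1, the paralogue of Nck2, and the channel gene Trpc5 had none, like Trpc6.

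In a list of 24 genes of the podocyte actin cytoskeleton, 18 were near Foxc1 summits and 15 near Foxc2 summits. Over all protein-coding genes these shares were 29.3 and 23.2%, and in the longest decile of span 47 and 27.7%. This list was not matched by length either. Of its 20 genes with a listed start, 6 had a Foxc2 summit within 1 kb and 1 had a Foxc1 summit. Among all genes with a listed start the shares were 8.36 and 2.7%. An overlapped Foxc1 peak was present at 7 of the 24, against 3.39% of all protein-coding genes. No test set these lists apart from the 9 genes.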

How the data were processed

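Per the submitters' processing notes, the authors mapped reads with Bowtie2 to mm10 and called peaks with MACS2, with versions, settings, control and pooling not given in the sources used here. Per peak, the deposited lists give a fold enrichment (a ratio to local background), the minus log10 p and q (−log10 values) and a summit offset. The deposited score restates the q-value and was not used. All q-values were under 0.05, the largest being 0.0470. Depth is unknown, since the lists hold no counts.

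Gene spans, starts and start sequences came from RefSeq GRCm38.p6, the assembly of mm10. Names of all 69 listed genes were found, and a start was listed for 17492 of the 21887 protein-coding genes of the numbered chromosomes, X and Y. Peaks elsewhere (6 Foxc1, 3 Foxc2) were left out. Overlap meant 1 shared bp. No test was run, since each antibody had 1 library. Python 3.11.15 with pandas 2.3.3 and scipy 1.17.1 was used, and the procedures were tested on simulated data. The genes and lists were chosen with earlier results of these data known. Named were the 9 genes with every peak, genes sharing a peak, up to 3 genes alike in counts and span, and, of the 36 further genes, those with both antibodies or the most peaks, while Kirrel, Nck1 and Trpc5 were named after their values were seen. The results of 3 of the further genes are not reported here, although they stayed in the counts. Alternatives covered distance, peak threshold, overlap and start window.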

Additional observations from a re-analysis of the deposited data

How the results depend on the processing

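Of 48 alternatives run on 9 counts and shares, 42 stayed within 1.5 times the count given or within the interval of the share. Keeping only peaks of fold 5 or more moved the most values. It left 5 genes with a Foxc1 summit, 10 Foxc1 peaks, 11 Foxc2 peaks and 2 overlapped peaks in each list. With a window of 500 bp in place of 1 kb, the share of Foxc1 summits at a gene end went from 4.17% to 0%. Counting a peak only for the gene that holds its summit, or else the gene of nearest end, removed Nphs1 and left 7 genes with a Foxc1 summit, as did the span alone and 10 kb. The searches for forkhead words under the peaks were not run, since no genome sequence was used here. The wider word sets in start windows were chosen after seeing the data, and no window with a Foxc2 summit within 1 kb held one. No paired analysis was possible because each antibody had 1 library. Peak lists keep only places past the caller's threshold, so a gene without a peak may hold weaker signal.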

Other observations

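Across all 21263 start windows of protein-coding genes, the word TGTTTAC was in 12.9% of the 536 windows with a Foxc1 summit within 1 kb and in 3.07% of the 1729 windows with a Foxc2 summit there, against 3.01% of all windows. The shorter TGTTTA was in 19.4 and 6.65%, against 11.5%. Both words were rarer where CpGs were many. TGTTTAC was in 4.82% of windows in the lowest CpG quartile and 1.79% in the highest, and TGTTTA in 20.4 and 4.33%. For both words, the share of windows with a Foxc2 summit lay above that of the highest quartile. Only 1155 of those 1729 windows are in that quartile, and both words were more common in the lower ones. This mix was not adjusted for. Windows with a Foxc1 summit held a median of 23 CpGs and those with a Foxc2 summit 29, against 13 in all windows. These are descriptions of 1 library for each antibody, and windows of neighbouring starts overlap. The Foxc1 peak nearest a start of the slit diaphragm genes, that of Pard3b, lay outside the window, which held no such word.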
